A study of Rattus norvegicus with 3 samples.

Results

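Cytosolic ribosomal proteins are the protein part of the ribosome that translates mRNA outside mitochondria. They were followed here on 3 oligonucleotide arrays of rat thoracic aorta. Members were the genes whose platform symbol was Rplp0, Rplp1, Rplp2 or Rpsa, or began with Rpl or Rps and a digit, without the S6 kinases, and only probe sets with exactly 1 symbol were used. This gave 43 genes, 29 of the large and 14 of the small subunit, measured by 63 probe sets, out of 4736 genes on the array. Of the 43, 26 had 1 probe set, 15 had 2, 1 had 3 and 1 had 4. The symbols of 6 members name copies, paralogues or pseudogenes (Rpl19l4, Rpl36al1, Rpl3l, Rps27l, Rps2-ps1 and Rps4x-ps9), and what such probe sets measure may include the parent gene. Rpl3l is known as the striated muscle form of Rpl3.

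Sprague Dawley rats were treated for 20 days, and total RNA of the thoracic aorta was hybridised. The control group received water at 1 ml/kg, the low group allylamine at 35 mg/kg and the high group allylamine at 70 mg/kg, and no age, sex or genetic change is given in the labels. Each group had 1 array, and the labels do not say how many rats contributed RNA to it. Allylamine is an amine toxic to heart and artery, which vascular amine oxidase turns into the aldehyde acrolein. The series asks how the aorta responds to the dose. Without replicates there was no test and no error between animals, so precision is limited by having only 3 arrays and each difference describes those arrays. Fewer cells of a type and less RNA per cell cannot be told apart in whole aorta.

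A ribosome has a small subunit, which reads the mRNA and selects the matching tRNA, and a large subunit, which forms the peptide bond and passes the new chain through an exit tunnel. Ribosomal proteins are made in balanced amounts, and their mRNAs typically begin with a C followed by a run of pyrimidines (the TOP motif), through which the mTOR pathway controls their translation. Free ribosomal proteins such as Rpl5 and Rpl11, which bind 5S rRNA together, can hold back the p53 ligase Mdm2. In most tissues, smooth muscle included, the mRNAs of these proteins are abundant.

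RefSeq start windows (assembly GRCr8) were found for 37 of the 43 members. A window holds 15 bases before and 15 bases from the annotated start of the gene, on the strand of the transcript. A run was at least 5 uninterrupted letters that are C or T, counted from a C within 5 bases of the annotated start. Such a run was present in 18 of 37 members (48.6%), against 17.0% of all 33469 RefSeq start windows. The base before that C could itself be C or T, as in Rpl35 and Rps9 below. The whole stretch can therefore begin earlier, or with a T. The windows of 7 members with a run, in capitals, and of 5 without are shown so that both kinds can be compared. They are examples, and their proportion is not that of the members. The last 5 had no run beginning within that distance, although C and T stretches lie further upstream in some of them, Rps6 and Rpl5 included. They lie at chr10:83519049-83519078 (plus strand, Rpl19), chr1:74430423-74430452 (minus, Rps9), chr9:49143096-49143125 (plus, Rpl31), chr2:173827028-173827057 (minus, Rps3a), chr3:43165907-43165936 (minus, Rpl35), chr2:23814502-23814531 (plus, Rps23), chr12:46718376-46718405 (minus, Rplp0), chr5:106420526-106420555 (minus, Rps6), chr14:1995211-1995240 (minus, Rpl5), chr10:54109677-54109706 (plus, Rpl26), chr1:163195762-163195791 (minus, Rps3) and chr12:13386139-13386168 (minus, Rpl21). Each spans the boundary of the upstream region and the first exon.
Rpl19: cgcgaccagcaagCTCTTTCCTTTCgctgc
Rps9: tccggcggccacgtttCTCTTTgtcacggg
Rpl31: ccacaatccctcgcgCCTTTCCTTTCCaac
Rps3a: gagttgtacttccgCCCTTTTggctctcag
Rpl35: cgccccttcctCTTTCTCTCgaaccgggcg
Rps23: tgggtccttcctgCCTCTCTTCTCTCTTTC
Rplp0: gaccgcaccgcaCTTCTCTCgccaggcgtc
Rps6: gacgcctcctaggcggtcggctgtgtcaag
Rpl5: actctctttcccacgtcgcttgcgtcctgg
Rpl26: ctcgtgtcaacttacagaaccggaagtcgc
Rps3: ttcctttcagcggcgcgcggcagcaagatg
Rpl21: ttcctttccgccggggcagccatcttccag

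Values are intensities after each array was scaled to a common median. Scaled values under an intensity of 188, their overall 40th percentile, were treated as too low to rank, and this limit is called the floor. A probe set counts as measured in a comparison when both arrays exceed the floor. Each gene was given the median log2 difference over its measured probe sets, and at least 2-fold means a log2 difference of 1 or more either way. Of the 63 member probe sets, 29 lay above the floor on all 3 arrays, 25 on some and 9 on none. Of the members' probe sets, 69.8% exceeded the floor in control, 60.3% at the low dose and 69.8% at the high dose, against 60.1%, 59.2% and 60.7% of all probe sets.

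The arrays themselves differed. Across all probe sets, the correlation of log2 intensities with the control array was r = 0.70 at 35 mg/kg and r = 0.48 at 70 mg/kg (8740 probe sets, which share each array's processing and are not replicates). Over the 63 member probe sets these values were 0.79 and 0.50. The median ratio of 9 spike-in probe sets to their control-array values was 3.81 at the low dose and 28.8 at the high dose. For actin, the 3' over 5' ratio was 0.376 in control, 0.542 at the low dose and 1.42 at the high dose, and for GAPDH it was 0.175, 0.318 and 0.226, highest at the low dose. The part of these array differences in the results that follow was not tested. The smooth muscle list had 10, 9 and 8 of 13 genes above the floor on the control, 35 and 70 mg/kg arrays, with summed intensities of 5816, 5210.1 and 6958. Of its 8 genes measured at 70 mg/kg against control, 3 were at least 2-fold higher (Cnn1 2.86, Pln 2.36 and Actg2 1.32). Lower was 1 (Kcnmb1, -1.66), while 19.7% of all measured genes were higher and 23.2% lower. Acta2 (-0.02), Tagln (-0.84), Myh11 (-0.29) and Myl9 (0.46) lay between. Another 4 genes of the list lay above the floor on 1 of these arrays only, with 0 past 2-fold upward and 2 downward. These were Myl6 (1068 in control, 187.5 at 70 mg/kg) and Itga8 (651 and 172). Over all such genes 25.7% passed 2-fold upward and 26.3% downward. In the same order, the leukocyte list summed to 4659, 2849.7 and 4687 over 12 genes, the striated muscle list to 6229.8, 6017 and 5602 over 15, and the adipocyte list to 6894, 9544 and 4542 over 9. Fibroblast genes summed to 2566, 6232 and 4090.3 over 7, endothelial genes to 2522, 3291 and 4374 over 8, and blood genes to 3371, 2482 and 3758 over 5. Genes above the floor were 8, 6 and 7 for leukocytes, 12, 8 and 8 for striated muscle and 5, 7 and 8 for adipocytes. They were 6, 7 and 7 for fibroblasts, 5, 7 and 7 for endothelium and 3, 4 and 5 for blood. A sum is weighted toward bright genes, and medians could order the arrays differently. The median intensity was 217, 495 and 463 for adipocyte genes and 275, 379 and 742 for blood genes. The part of these lists in the ribosomal values was not tested.

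**Figure D1:**
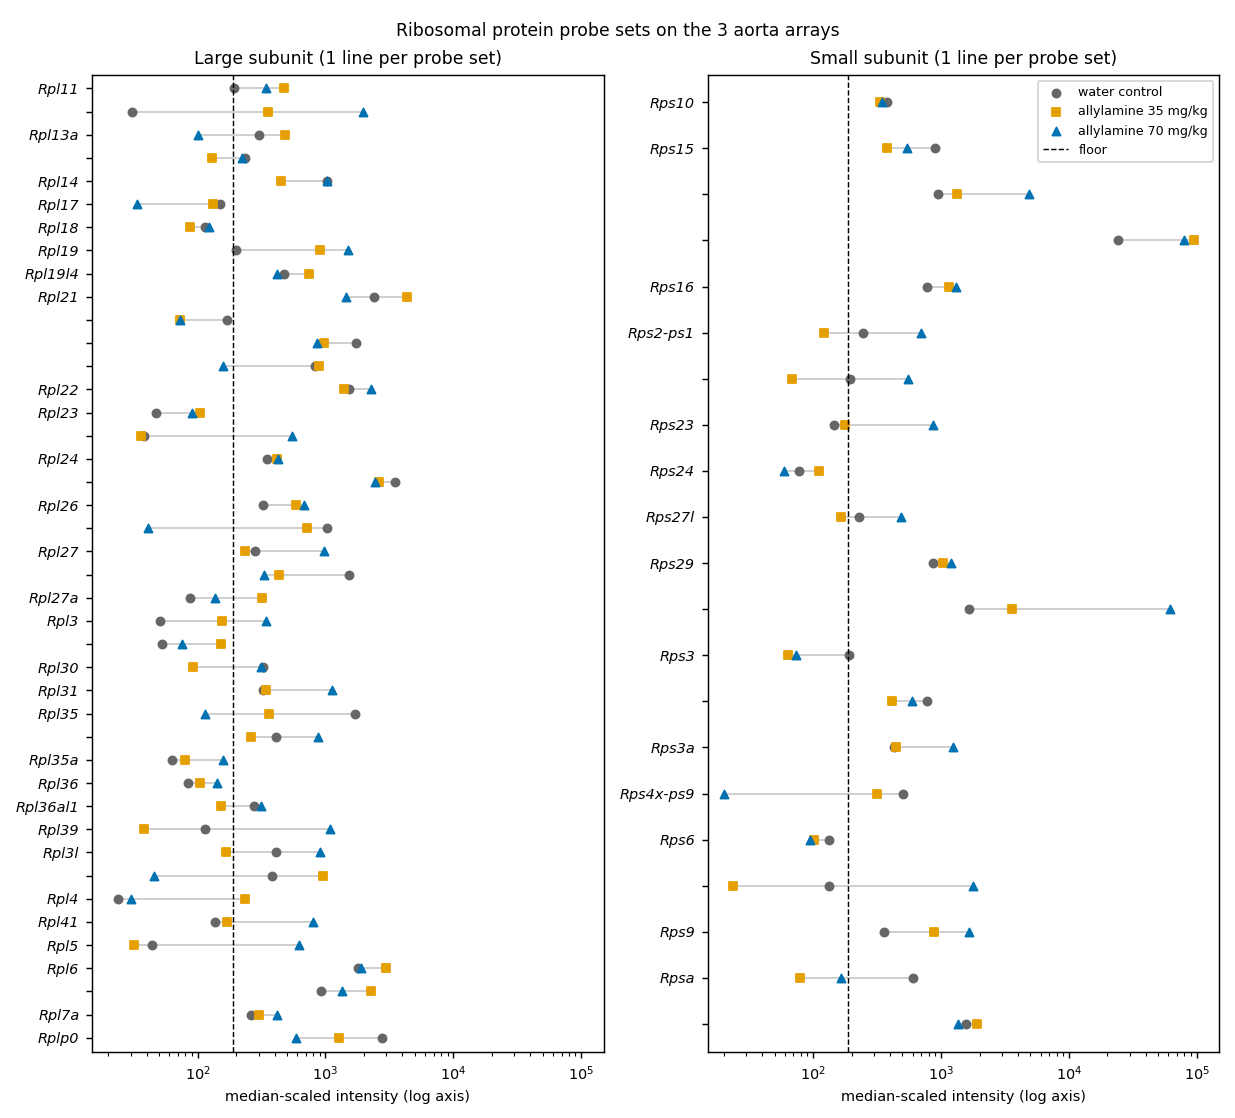
Median-scaled intensity (log axis) of each of the 63 ribosomal protein probe sets on the control (circle), 35 mg/kg (square) and 70 mg/kg (triangle) arrays, with 1 line per probe set, genes in name order and the floor of 188 dashed. Probe sets of the same gene can order the arrays differently, as for Rpl35 and Rpl27.

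At 70 mg/kg, 28 of the 43 members were measured against control, and 11 of them were at least 2-fold higher, where 19.7% of all 2462 measured genes were. Only 1, Rplp0, was at least 2-fold lower, where 23.2% of all genes were. The median difference of the members was 0.63, against -0.06 over all genes. The small subunit had 6 of 10 measured genes at least 2-fold higher, 0 lower and a median of 1.30. For the large subunit the counts were 5 of 18 higher and 1 lower, with a median of 0.24. In total, 42.9% of measured members and 42.9% of all measured genes differed at least 2-fold, so the members stood out in how their differences divided between higher and lower and not in how many there were. The difference between the subunits was not tested.

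These values depended on how probe sets were combined. In 1 alternative, each gene's level was taken as the median over all its probe sets, with low values raised to the floor. The members' median was then 0.11, with 9 higher (32.1%) and 3 lower (10.7%), and that of the large subunit was -0.02. All genes had a median of -0.03, with 17.3% higher and 20.0% lower. In another, probe sets were added that carry several symbols, all of 1 ribosomal protein and its copies. The members' median was then 0.17 over 41 proteins, with 12 higher (29.3%) and 3 lower (7.3%). All genes had a median of -0.06, with 19.7% higher and 23.2% lower.

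**Figure D2:**
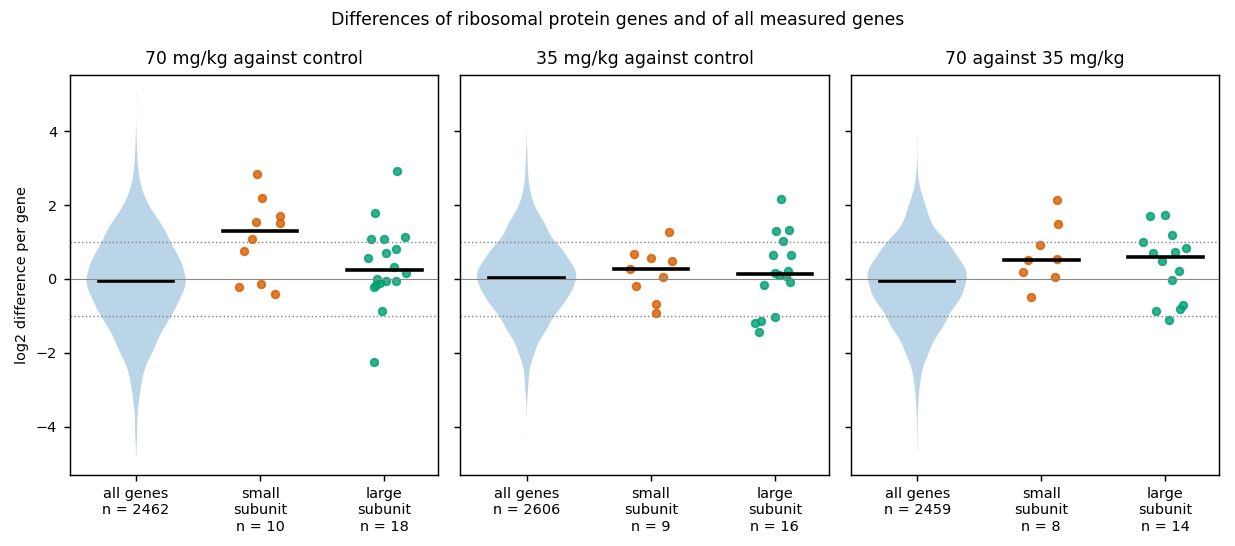
Log2 difference per gene in the 3 comparisons, for all measured genes (shaded outline showing their distribution) and for small and large subunit genes (1 point per gene), with bars at the medians and dotted lines at 2-fold. At 70 mg/kg against control the small subunit median is 1.30 and the large subunit median 0.24, while the median of all genes is -0.06.

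Among small subunit proteins, Rps9 and Rps3a were measured by 1 probe set each. Rps9, which sits near the mRNA entry channel, had intensities of 360.2 in control, 876 at 35 mg/kg and 1649 at 70 mg/kg. Its log2 difference from control was 2.20 at the high dose and 1.28 at the low dose, so the order followed the dose. Rps3a, a protein near the mRNA exit, gave 429, 445 and 1242, level between control and 35 mg/kg and higher by 1.54 at 70 mg/kg. Rps16, whose tail reaches toward the tRNA, gave 781, 1162 and 1315, a difference of 0.75 at 70 mg/kg. Rps10, which is ubiquitinated when ribosomes stall, was nearly level at 377, 331 and 345, with -0.13 at 70 mg/kg (0.02 with the values as deposited and 0.03 with a common trimmed mean).

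Rps29 is a small zinc-binding protein. On 1 of its probe sets it gave 1667 in control, 3589 at 35 mg/kg and 61211 at 70 mg/kg, a log2 difference of 5.20. Its other probe set gave 861, 1038 and 1188, a difference of 0.47. Both were higher at 70 mg/kg, but by amounts 4.73 apart on the log2 scale, and the gene's difference of 2.83 lies between them. Rps15, a protein of the decoding region, had 3 probe sets. Of these, 2 from the same sequence gave 24109, 95188 and 79308 and 948, 1337 and 4879, and the last gave 889.9, 379.6 and 541. Its difference at 70 mg/kg was 1.72, from probe sets at -0.72, 1.72 and 2.36, and it was -0.54 after quantile normalization.

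Rps3, which also sits at the mRNA entry, gave 784 in control, 413 at 35 mg/kg and 595 at 70 mg/kg on 1 probe set and 191, 63.2 and 74.1 on the other. Both were lower on the treated arrays. Only the first was measured, with differences from control of -0.93 at 35 mg/kg and -0.40 at 70 mg/kg. Rpsa, the ribosomal protein also known as the laminin receptor precursor, gave 1578, 1902 and 1362 on 1 probe set, a difference of -0.21 at 70 mg/kg (0.08 after quantile normalization). On the other it gave 602, 79.7 and 164, above the floor in control only. Rps27l, a p53-inducible paralogue of Rps27, gave 229, 165 and 489.7, so that it was lowest at 35 mg/kg and higher than control by 1.10 at 70 mg/kg. The pseudogene symbol Rps2-ps1 had the same order on both of its probe sets, 244, 123 and 699 and 193, 68.2 and 548, with differences of 1.52 and 1.51. Its control value of 193 lies just above the floor. Of the 7 members with several measured probe sets at 70 mg/kg, Rps2-ps1 had the smallest gap between any of them (0.01).

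Rps6, the substrate of the S6 kinases, and Rps23, a protein of the decoding centre, lay above the floor at 70 mg/kg only. Rps6 gave 133, 23.6 and 1793 on 1 probe set, at least 9.52-fold higher at 70 mg/kg than the floor, while its other probe set stayed below the floor on every array (134, 102 and 94.8). Rps23 gave 146, 178 and 864, at least 4.59-fold higher. The pseudogene symbol Rps4x-ps9 went the other way, with 504, 315 and 20.3, at least 2.67-fold lower at 70 mg/kg. Rps24, a gene mutated in Diamond-Blackfan anaemia, stayed under the floor throughout (78.3, 111 and 59.7).

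In the large subunit, Rpl19, which forms a bridge to the small subunit, had the largest difference of the 28 measured members at 70 mg/kg. Its 1 probe set gave 199 in control, 901 at 35 mg/kg and 1506 at 70 mg/kg, log2 differences of 2.18 and 2.92, but the control value lies just above the floor. Rpl31, at the mouth of the exit tunnel, gave 323, 340.5 and 1116, level at 35 mg/kg and higher by 1.79 at 70 mg/kg. Rplp0, the base of the stalk that recruits elongation factors, went the opposite way. It gave 2784, 1265 and 587, lower at each dose step, with differences of -1.14 at 35 mg/kg and -2.25 at 70 mg/kg.

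Rpl35 and Rpl26, both beside the exit tunnel, and the muscle form Rpl3l also counted among the members past 2-fold upward at the high dose, and each had another probe set that went the other way. Rpl35 gave 413, 262 and 876 on 1 probe set and 1697, 363 and 114 on the other, both designed on the same sequence. Rpl26 gave 325, 586 and 685 on 1 and 1034, 719 and 41.4 on the other. Rpl3l gave 414, 168 and 902 on 1 and 382, 961 and 46.0 on the other, again from the same sequence. In all 3 genes the second probe set ended below the floor at 70 mg/kg and so did not enter the difference, which was 1.08 for Rpl35, 1.08 for Rpl26 and 1.12 for Rpl3l. Lowering the floor to the 5th percentile let these probe sets in, and the differences were -1.40, -1.78 and -0.97 in that order.

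The 11 members counted as higher at 70 mg/kg can therefore be divided by their probe sets. Of these, 5 rested on 1 probe set (Rps9, Rps3a, Rps27l, Rpl19 and Rpl31), 2 had all probe sets higher (Rps29 and Rps2-ps1) and 4 had a probe set on the other side of 0 (Rps15, Rpl35, Rpl26 and Rpl3l).

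**Figure D3:**
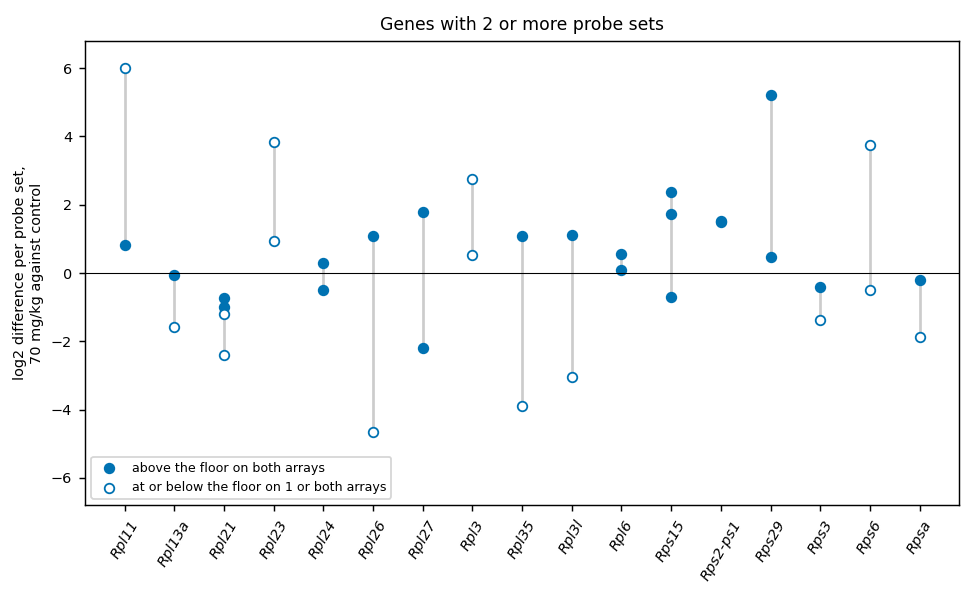
Log2 difference between 70 mg/kg and control for each probe set of the 17 members with more than 1. Filled points lie above the floor on both arrays and open points do not, and a line joins the probe sets of each gene. In Rpl24, Rpl26, Rpl27, Rpl35, Rpl3l, Rps6 and Rps15 the probe sets lie on both sides of 0.

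Probe sets designed on the same sequence gave a direct view of this spread. The members had 10 pairs made of a standard probe set and a partner from the same sequence. At 70 mg/kg against control, 5 of the 10 pairs had the same sign and 5 had opposite signs, counting values below the floor too. Over all 906 such pairs on the array 55.2% had the same sign. At 35 mg/kg against control the counts were again 5 of 10, against 57.4% of all pairs, and between the doses 2 of 10, against 51.7%. The median gap within a pair was 3.44 on the log2 scale for the members and 1.72 for all pairs at 70 mg/kg against control. Among measured probe sets of the same gene, 386 of 730 pairs on the whole array (52.9%) had the same sign. The direction of a gene's difference was thus often not shared by its own probe sets, on the whole array as among the members, which limits what each printed difference means, above all where it rests on 1 probe set.

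Rpl27, a protein of the large subunit, showed the pattern above the floor. It gave 283, 235 and 972 on 1 probe set and 1515, 431 and 331 on its partner, differences of 1.78 and -2.19 at 70 mg/kg, and their median was -0.21. Rpl24, which bridges the subunits, was far closer, at 350.3, 415 and 427 and at 3474, 2623 and 2439.9, with differences of 0.29 and -0.51. Its median of -0.11 was 0.04 with the values as deposited or a common trimmed mean and 0.20 after quantile normalization. Rpl6 gave 917, 2262 and 1338 and 1791, 2978 and 1908, in both cases highest at 35 mg/kg, with differences from control of 1.02 at 35 mg/kg and 0.32 at 70 mg/kg. Rpl21 had 4 probe sets, each lower at 70 mg/kg than in control: 2405 to 1457, 1721 to 861, 823 to 157 and 169 to 72.9. At 35 mg/kg these gave 4353, 978, 884 and 72.4. Its difference from the 2 measured at 70 mg/kg was -0.86.

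Rpl5 and Rpl11, the partners of 5S rRNA, were both higher at 70 mg/kg on their probe sets, although mostly from control values under the floor. Rpl5 gave 44.4, 32.0 and 619, at least 3.28-fold higher than the floor at 70 mg/kg. Rpl11 gave 30.7, 356 and 1968 on 1 probe set and 193, 475 and 340.4 on its partner, with a difference of 0.82 on the latter at 70 mg/kg and 1.30 at 35 mg/kg. The control value behind both differences, 193, lies just above the floor. The array's control probe set for 5S rRNA gave 999 in control, 613 at 35 mg/kg and 669.6 at 70 mg/kg, lower on both treated arrays.

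A further 4 large subunit members lay above the floor at 70 mg/kg and below it in control. Rpl39, a very small protein lining the exit tunnel, gave 114, 38.2 and 1081, at least 5.74-fold higher than the floor. Rpl41, among the smallest proteins known, gave 137, 169.5 and 796, at least 4.23-fold. Rpl23 gave 38.4, 36.0 and 552 on 1 probe set, at least 2.93-fold, while its partner stayed below the floor at 47.2, 105 and 90.7. Rpl3, which lies near the peptidyl transferase centre, gave 50.8, 155 and 341, at least 1.81-fold, and 52.4, 153 and 75.9 on its other probe set.

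In all, 8 members lay above the floor on only 1 of the control and 70 mg/kg arrays. Of these, 6 passed 2-fold upward at 70 mg/kg (Rps6, Rpl39, Rps23, Rpl41, Rpl5 and Rpl23), as did 25.7% of the 1442 such genes on the array, and 1 passed it downward (Rps4x-ps9), as did 26.3%. On the 70 mg/kg array the 5th percentile of all probe sets was 47.4, against 25.2 in control and 33.2 at 35 mg/kg, so that low values lay higher there. The remaining 7 members were below the floor on both arrays: Rps24, Rpl4, Rpl17, Rpl18, Rpl27a, Rpl35a and Rpl36.

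The 4 members nearest to no difference at 70 mg/kg were Rpl14, Rpl30, Rpl13a and Rpl24. Rpl14 gave 1025, 448 and 1029, so that control and 70 mg/kg were alike and the low dose differed from control by -1.19. Rpl30 was also lowest at 35 mg/kg, at 324, 92.7 and 315. Rpl13a, which can leave the ribosome to silence inflammatory mRNAs, gave 234, 131 and 225 on 1 probe set and 305, 481 and 102 on the other, which disagree. Rpl30 (-0.04) and Rpl13a (-0.06) were above 0 with the values as deposited, at 0.11 and 0.09, and with a common trimmed mean, at 0.11 and 0.10. Rpl7a (0.69), Rpl22 (0.56), Rpl36al1 (0.17) and Rpl19l4 (-0.18) made up the rest of the measured large subunit members.

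At 35 mg/kg, 25 members were measured against control. At least 2-fold higher were 5 of them, where 16.8% of all 2606 measured genes were, and at least 2-fold lower were 4, where 16.3% were (33.1% of all genes either way). The members' median was 0.16, against 0.04 over all genes, so at this dose they lay near the background in both directions. Higher were Rpl19, Rps9 and Rpl6 as given above, Rpl11 (1.30) and Rpl3l (1.33 on the probe set that gave 382 and 961, while the other, at 414 and 168, ended under the floor). Lower were Rplp0 (-1.14), Rpl14 (-1.19), Rpl27 (-1.04) and Rpl35 (-1.44, with both probe sets lower). The small subunit had 1 of 9 genes higher and 0 lower, with a median of 0.27, and the large subunit 4 of 16 each way, with a median of 0.13. A further 6 members lay above the floor on 1 of these arrays only, with 0 of them 2-fold above it in either direction. Over the whole array, 18.2% of such genes passed 2-fold upward and 23% downward. The 6 include Rpl4, which gave 23.9, 237 and 30.0, and Rpl27a, at 87.8, 321 and 137, the only members above the floor at 35 mg/kg alone.

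Between the doses, 22 members were measured, and 5 were at least 2-fold higher at 70 than at 35 mg/kg, where 14.4% of 2459 genes were. Rplp0 alone was at least 2-fold lower (-1.11), where 20.9% of all genes were (35.3% either way). These counts were 7 higher and 0 lower with the values as deposited or a common trimmed mean, against 17.9% and 18.9% of all genes. After quantile normalization they were 8 higher and 1 lower, against 16.6% and 18.7%. The members' median was 0.52, against -0.06 over all genes, with 0.52 in the small subunit and 0.59 in the large. The 5 were Rps29 (2.14, from probe sets at 0.20 and 4.09), Rpl35 (1.74 on 1 probe set), Rpl31 (1.71), Rps3a (1.48) and Rpl14 (1.20). The other Rpl35 probe set went from 363 to 114 (-1.67) and was left out by the floor. Rpl35 was at 0.04 with a 5th or 25th percentile floor and at 0.40 with median levels, under 2-fold in each. Of the 16 members above the floor on 1 of these arrays only, 8 passed 2-fold upward, as did 26.1% of such genes, and 0 passed it downward, as did 23.3%. The comparisons with control share the control array, and this one shares an array with each of them, so they are not independent.

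Probe sets that the rule left out because they carry several symbols gave different values. There were 36 whose symbols all belong to 1 ribosomal protein and its copies, standing for 29 proteins, 24 of them without any probe set of 1 symbol. Of these, 15 were measured at 70 mg/kg, with a median difference of -0.50, 2 at least 2-fold higher and 2 lower. The 36 member probe sets measured in the same comparison had a median of 0.55, with 14 higher and 2 lower. All 3827 measured probe sets had a median of -0.05, with 20.7% higher and 24.3% lower. At 35 mg/kg the several-symbol probe sets had a median of -0.35 over 14, with 0 higher and 4 lower, where 18.6% and 17.4% of all measured probe sets were. Between the doses it was -0.19 over 13, with 1 higher and 3 lower, where 16.4% and 22.9% were. The difference between both kinds of probe set was not tested.

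**Figure D4:**
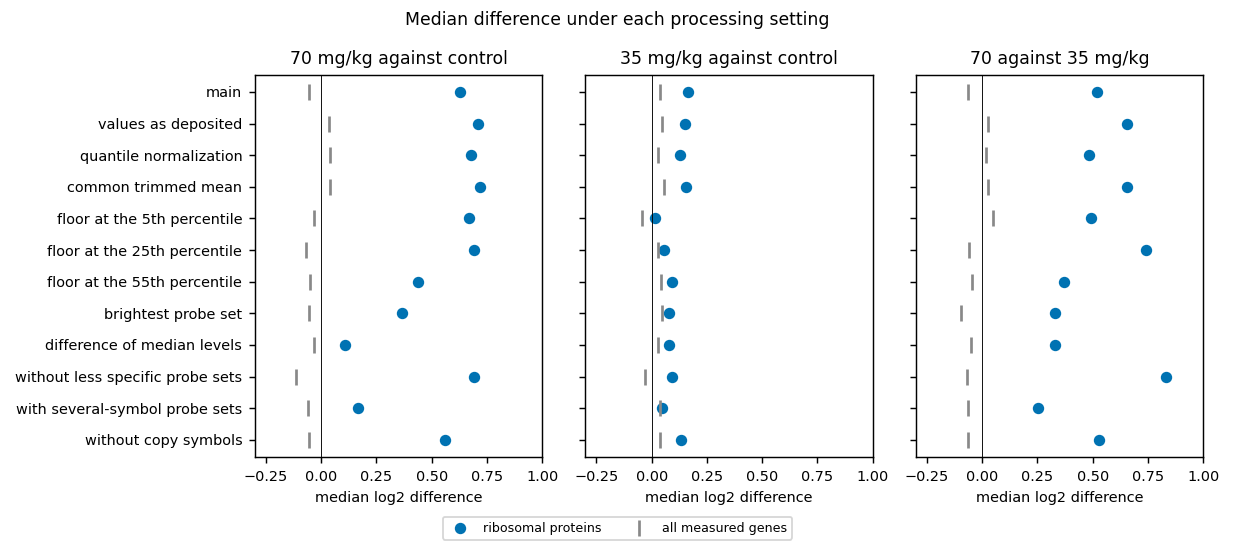
Median log2 difference of the ribosomal proteins (points) and of all measured genes (ticks) under each processing setting, in the 3 comparisons. At 70 mg/kg against control the members' median runs from 0.11, with differences of median levels, to 0.72, with a common trimmed mean.

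Members with and without a pyrimidine run at the annotated start were also set side by side. At 70 mg/kg against control, the 10 measured members with a run had a median of 1.31, with 6 past 2-fold upward and 1 downward, and the 13 without a run a median of 0.32, with 3 higher and 0 lower. Among all measured genes 19.7% were higher and 23.2% lower, so 3 of 13 is near that share and 6 of 10 above it. Of the 6, Rpl35 and Rps15 had a probe set on the other side of 0, and the others rested on 1 probe set each. Of the 3, Rpl26 and Rpl3l had a probe set on the other side of 0, and Rps27l rested on 1 probe set. At 35 mg/kg the medians were -0.05 over 10 and 0.27 over 11, in the other order. There 2 were higher and 3 lower with a run, and 3 higher and 0 lower without. Of all measured genes 16.8% were higher and 16.3% lower. The run is a description of the annotated start and not of the transcripts in these aortas, and the difference was not tested.

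Other parts of the translation machinery were described by lists chosen with earlier results known. Their counts past 2-fold stand against 19.7% of all genes higher and 23.2% lower at 70 mg/kg, and 16.8% and 16.3% at 35 mg/kg. Of 22 translation initiation factors, 11 were measured at 70 mg/kg against control, with a median of -0.64, 1 at least 2-fold higher and 2 lower. Eif5b, which joins the subunits, differed by -1.17, Eif2s1, the subunit phosphorylated under stress, by -1.14, Eif5 by 1.03 and the cap-binding Eif4e2 by -0.81. Of 6 elongation and termination factors 3 were measured: Eef1g at 2.40 on 1 probe set, the translocase Eef2 at -0.71 on 3 probe sets (-2.24 to -0.62) and its kinase Eef2k at 0.25. The control value of Eef1g, 212, lies near the floor. Mitochondrial ribosomal proteins, which serve the separate ribosome of mitochondria, had 7 of 14 measured, 0 higher and 1 lower (Mrpl45, -1.35), with a median of 0.35. Mrpl44 was at 0.83, Mrpl23 at 0.65 and Mrpl38 at 0.43.

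Of 13 genes of ribosome biogenesis, 6 were measured, with a median of 0.03, 1 higher and 1 lower. These were Nop58, a core protein of the particles that methylate rRNA, at 1.75, and the growth regulator Myc at -1.99, beside Nvl at 0.81 and Nolc1 at -0.80. Of 11 genes of the mTOR pathway, which controls TOP mRNAs, 5 were measured, with a median of 0.52, 1 higher and 0 lower. The mTOR activator Rheb was at 1.16, its inhibitor Tsc2 at -0.78, Akt1 at 0.76 and Akt2 at -0.59. Rps6kb1, the main S6 kinase, had no probe set above the floor on both arrays. Of 6 aminoacyl-tRNA synthetases 2 were measured, Kars1 at 2.10 and Iars1 at 0.61. The control value of Kars1, 196, lies just above the floor. Genes above the floor on only 1 of the control and 70 mg/kg arrays are not in these counts. Of 4 such mTOR pathway genes, 2 passed 2-fold upward and 1 downward (Rictor, 785 to 37.6). Of 5 initiation factors, 2 passed it upward and 1 downward (Pabpc4, 1574 to 52.2). Of 5 mitochondrial ribosomal proteins it was 0 and 1, and of 6 biogenesis genes 1 and 0. Of 2 elongation factors, 1 passed it upward (Eef1a1) and 1 downward (Eef1a2, 550 to 113). The 1 such synthetase passed it downward (Tars1, 1014 to 175). Over all such genes 25.7% passed it upward and 26.3% downward. At 35 mg/kg the medians were 0.21 over 13 initiation factors (1 higher, 3 lower), -0.44 over 9 mitochondrial ribosomal proteins (0 higher, 2 lower) and 0.10 over 8 biogenesis genes (0 higher, 1 lower). Rack1, a small subunit protein outside the name rule, was not measured in any comparison.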

How the data were processed

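Values were the deposited linear intensity of every probe set. Their trimmed mean (2% off each end) was 500.0 on each array; how the authors obtained them is not stated in the labels. Of 8799 probe sets, 59 controls were left out, and 7006 of the other 8740 had 1 symbol in the platform annotation, 308 several and 1426 none. Of the 43 members, 42 were found by gene ID in the GRCr8 gene table and 1 by symbol.

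Arrays were scaled to the mean of their medians (log2 shifts of 0.06, 0.04 and -0.09 for control, 35 and 70 mg/kg), raised to the 40th percentile and log2-transformed with Python 3.11.15, pandas 2.3.3 and numpy 2.4.6. The steps were run on simulated arrays with 200 changed genes, in which all probe sets of a gene were shifted together. This checks the calculation only, because probe sets of a gene on the real arrays often disagree. Groups came from the labels' descriptions. A bound is the median fold over the floor of those probe sets of a gene that exceeded it on only 1 of the arrays compared. It was given only where no probe set of the gene exceeded the floor on both. All members were accounted for; values were given for members at least 2-fold apart, with a bound or several probe sets, and the 4 nearest 0, and in each pathway list for up to 4 genes with the largest differences of 1 sign. The members, lists and settings were chosen with earlier results of these data known. Alternatives were 10 fixed and 2 added after the values were seen (several-symbol probe sets, and no copies). Protein sequences were not used here.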

Additional observations from a re-analysis of the deposited data

How the results depend on the processing

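Medians that moved by less than 0.1 on the log2 scale and counts within 1.5 times were taken as the same. This held for 68 of 108 recomputed medians and counts. The 108 include the medians of the 1.5-fold setting, which changes only the counts, so those medians could not move. No recomputed median over all members changed sign, but 4 subunit medians did: the large subunit at 70 mg/kg against control (-0.02 with median levels), the large subunit at 35 mg/kg (-0.04 with the brightest probe set, -0.0013 with the 55th percentile floor) and the small subunit at 35 mg/kg (-0.07 with the 5th). For 70 mg/kg against control, the members' median was 0.44 with a floor at the 55th percentile, 0.36 with the brightest probe set, 0.11 with differences of median levels and 0.17 with several-symbol probe sets. The members at least 2-fold lower were 5 with the 5th percentile floor, 3 with the 25th and 2 with the 55th. They were 2 with the brightest probe set, 3 with median levels, 0 without less specific probe sets and 3 with several-symbol probe sets. At 1.5-fold 2 were lower. The members' share was at most 12.5%. Of all measured genes, 20.0% to 26.2% were lower in these settings, and 33.8% at 1.5-fold. For 35 mg/kg against control, the median was 0.017 with the 5th percentile floor, 0.054 with the 25th and 0.047 with several-symbol probe sets. The members lower were 9 with the 5th percentile floor (22.0% of 41, against 22.2% of all measured genes). With several-symbol probe sets 7 were lower (18.4%, against 16.3%). Those higher were 3 with the 55th percentile floor (15%, against 14.4%) and 8 at 1.5-fold (32%, against 28.8%). These shares lay near those of all genes.

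For 70 against 35 mg/kg, the median was 0.65 with the values as deposited and with a common trimmed mean, 0.74 with the 25th percentile floor, 0.37 with the 55th, 0.33 with the brightest probe set and with median levels, 0.83 without less specific probe sets and 0.25 with several-symbol probe sets. The members higher were 8 after quantile normalization (36.4%, against 16.6% of all measured genes) and 12 with the 5th percentile floor (30.8%, against 22.6%). With the 25th they were 11 (35.5%, against 17.7%) and at 1.5-fold 10 (45.5%, against 25.8%). The members lower were 0 with the values as deposited, a common trimmed mean or no less specific probe sets, and 3 with the 5th or 25th percentile floor. They were 2 with the brightest probe set or median levels, and 4 at 1.5-fold or with several-symbol probe sets. The members' share was at most 11.4%, and 18.2% at 1.5-fold. Of all measured genes, 17.8% to 24.3% were lower in these settings, and 32.0% at 1.5-fold.

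At 70 mg/kg, Rps15 was at -0.54 after quantile normalization, Rpl26 at -1.78, Rpl35 at -1.40 and Rpl3l at -0.97 with the 5th percentile floor, Rpl35 at -1.40 with the 25th, and Rpl26 at -0.69 and Rpl35 at -1.04 with median levels. Lower floors and median levels bring in probe sets that ended below the main floor, and the other causes were not tested. No paired analysis was possible because each group has 1 array.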

Other observations

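Short motifs were searched on both strands of the RefSeq promoter windows of 300 bases (250 before and 50 from the annotated start) of the 37 matched members. CCGGAAG, a form of the site of ETS factors such as GABP, was present in 9 (24.3%), against 8.75% of all 33469 windows. AAGATGG, a form of the YY1 site, was present in 8 (21.6%), against 7.01%, and TATAAA in 4 (10.8%), against 14.2%. A match of letters is not a bound site.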
